A study of Mus musculus with 24 samples.

Results

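The Serpin family comprised every gene of the deposited table whose name starts with Serpin followed by a clade letter from a to i and a number. There were 55 such genes among 28109. Clade A contributed 21 genes, clade B 24, clade E 3 and clade F 2, while clades C, D, G, H and I each contributed 1. Most lay in gene clusters, with 20 on chromosome 12, 16 on chromosome 13 and 10 on chromosome 1. RNA-seq had been performed on C2C12 cells, a mouse myoblast line of C3H origin, and on primary myoblasts (PMs) isolated from C57BL/6 mice. Both were transfected with a control siRNA (siControl, directed against luciferase according to the labels) or with pooled siRNAs against Tead1 and Tead4 (siTead1/4). The 12 groups are therefore C2C12 or PMs, siControl or siTead1/4, at day 0 (24 hours after transfection) and at days 3 and 6 of differentiation in low serum, with 2 biological replicates each and no untransfected cells. Cell type goes with strain, culture and time since explant, and these cannot be told apart here.

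Serpins share a fold in which an exposed loop acts as bait. When a protease cleaves the loop of an inhibitory serpin, the loop inserts into the body of the protein and the protease is trapped and distorted. Clade A holds mainly secreted plasma proteins, clade B intracellular inhibitors of granule and lysosomal proteases, and clade E inhibitors of the plasminogen activators and thrombin. Some members inhibit nothing, such as Serpinh1, the collagen chaperone of the endoplasmic reticulum. In muscle, plasminogen activation and collagen deposition both take part in regeneration. TEAD factors bind the MCAT element, whose core is CATTCC, in many muscle genes.

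The 24 libraries held 25453830 to 52784510 counted reads (median 39204772), and levels are given below in CPM (counts scaled to library size) for replicates 1 and 2 in that order. The silencing was visible in the targeted genes. In PMs, Tead4 fell at all 3 days (day 3 log2 fold change -2.58, SE 0.17, adjusted p = 9.25e-05) and Tead1 was called at days 0 and 3. In C2C12 cells, Tead4 was called at days 0 and 3 but Tead1 was not called at any day, with 70.5 and 113 CPM in siControl and 28.9 and 4.5 CPM in siTead1/4 cells at day 0. A gene was called when the adjusted p of edgeR's quasi-likelihood test was under 0.05 and the absolute log2 fold change was over 1.

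Of the 55 Serpin genes, 31 exceeded 10 counts in at least 1 library and 24 never did. The 24 included 15 genes of clade A, 8 of clade B and Serpinc1, which encodes antithrombin and reached at most 10 counts. Of the liver-type genes Serpina1d and Serpina1e, 16 and 55 reads were counted over all 24 libraries. The filter on low counts kept 27 Serpin genes in C2C12 cells, 21 in PMs and 29 in the joint fit.

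Per kilobase of transcript, Serpinh1 had the highest level of the family in every group. Its mean was 442 ± 49.3 CPM per kb (SD, n = 2) in siControl C2C12 cells at day 0 and 496 ± 71.3 CPM per kb in siControl PMs. Next at day 0 came Serpinf1, encoding the secreted non-inhibitory pigment epithelium-derived factor, at 209 ± 71.7 CPM per kb in C2C12 cells and 234 ± 23.6 CPM per kb in PMs. In C2C12 cells Serpinb6a followed at 148 ± 11.7 CPM per kb, and in PMs it was at 53.1 ± 0.911 CPM per kb. Serpinb6a is the mouse counterpart of a human intracellular inhibitor of cathepsin G. Serpinh1 alone made up 29.6% to 58.7% of the summed Serpin CPM of a library, a sum that ranged from 1529 to 3610 CPM. The library with the highest sum was the second siTead1/4 replicate of C2C12 cells at day 3.

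**Figure D1:**
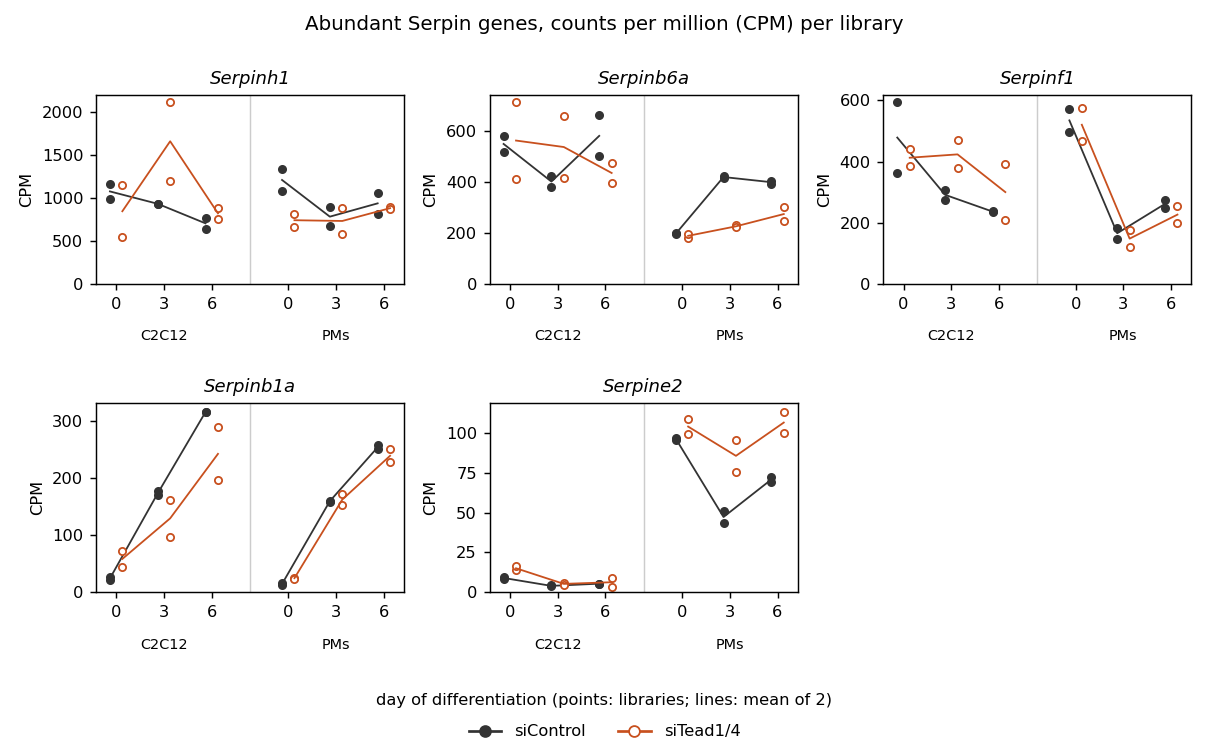
CPM of 5 abundant Serpin genes in each of the 24 libraries (points) by day of differentiation, with the mean of 2 replicates as lines, filled for siControl and open for siTead1/4. Serpinb1a rises with the day in both cell types, and Serpine2 lies far higher in PMs than in C2C12 cells.

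Few Serpin genes were called after silencing of Tead1 and Tead4. Over the 6 comparisons there were 11 calls in 8 genes, of which 8 calls were upward and 3 downward. Clade B supplied 6 of the 8 genes, beside 15 of the 29 Serpin genes tested, and 5 of the 8 lie on chromosome 13, beside 12 of the 29. In C2C12 cells 1 of 27 tested Serpin genes rose at day 0 (background over all tested genes 0.137%) and none fell (background 0.301%). At day 3, 2 rose (background 0.19%) and none fell (background 1.08%). At day 6 the edgeR test called none in either direction (backgrounds 0.0131% up and 0.0327% down), with 5 genes at an unadjusted p under 0.05 and 1 call by DESeq2. At days 0 and 3, 8 and 12 genes had an unadjusted p under 0.05 in that test, and DESeq2 called 3 and 5. In PMs, of 21 tested, 1 rose and 2 fell at day 0 (backgrounds 1.5% and 1.1%), 2 rose and 1 fell at day 3 (2.1% and 1.2%), and 2 rose and none fell at day 6 (0.465% and 0.279%). There, 5, 7 and 7 genes had an unadjusted p under 0.05 at days 0, 3 and 6. The median log2 fold change of the tested members was 0.18, 0.39 and -0.03 in C2C12 cells at days 0, 3 and 6, against 0.02, 0.01 and 0.01 over all genes. In PMs it was -0.05, -0.10 and -0.09 against -0.01, 0.01 and 0.00.

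**Figure D2:**
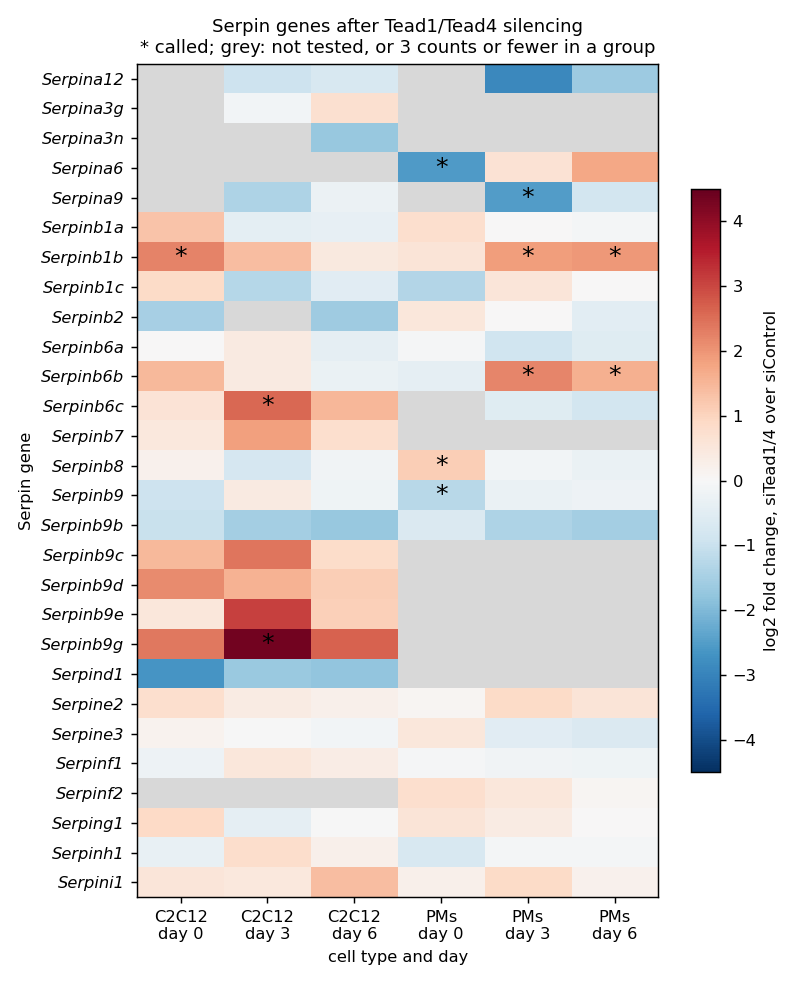
Log2 fold change of siTead1/4 over siControl cells for 28 of the 29 Serpin genes tested, in 6 comparisons, red for higher and blue for lower after silencing, with an asterisk on each of the 11 calls. Grey marks genes that were not tested or had 3 counts or fewer in both libraries of a group. Serpinb1b is positive in all 6 columns and Serpinb9b negative in all 6.

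Serpinb1b was the one Serpin gene called in both cell types by edgeR with the filter on low counts and all replicates. It lies at chr13:33175994-33186249 (mm9) and encodes a paralog of the elastase inhibitor Serpinb1a. In C2C12 cells at day 0 it measured 0.394 and 0.373 CPM with siControl and 1.55 and 2.12 CPM with siTead1/4 (log2 fold change 2.25, SE 0.33, adjusted p = 0.0275). At day 3 the values were 2.05 and 2.004 CPM and 4.31 and 6.58 CPM, without a call (log2 fold change 1.39, SE 0.29, adjusted p = 0.0517). DESeq2 (adjusted p = 0.00155) and edgeR without the filter on low counts (adjusted p = 0.00563) called this difference. So did edgeR with a block for replicate number (adjusted p = 0.0493). At day 6 the values were 2.97 and 2.84 CPM and 4.24 and 3.63 CPM. The siTead1/4 replicates thus lay above the siControl replicates at each day in C2C12 cells. In PMs, Serpinb1b was at 0.551 and 0.423 CPM with siControl and 0.682 and 0.81 CPM with siTead1/4 at day 0. It rose at day 3, from 0.365 and 0.455 to 1.202 and 1.89 CPM (log2 fold change 1.89, SE 0.41, adjusted p = 0.0209), and at day 6, from 0.776 and 0.326 to 1.91 and 2.36 CPM (log2 fold change 1.94, SE 0.40, adjusted p = 0.04996). Again the groups did not overlap at any day. These are low levels, and the PM calls were lost in each of the 4 fits that left out 1 replicate of 1 siRNA (adjusted p 0.0694 to 0.201 at day 3 and 0.119 to 0.272 at day 6). The C2C12 call was lost without either siControl replicate (adjusted p 0.02397 to 0.778 over the 4 fits).

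Serpinb6b, at chr13:33057078-33070936, a relative of Serpinb6a, was called in PMs but not in C2C12 cells by edgeR with the filter on low counts and all replicates. In PMs it was at 1.25 and 0.704 CPM with siControl and 0.8697 and 0.652 CPM with siTead1/4 at day 0. At day 3 it rose from 0.673 and 0.986 to 3.24 and 4.56 CPM (log2 fold change 2.21, SE 0.34, adjusted p = 0.00432), and at day 6 from 1.55 and 1.21 to 4.301 and 4.06 CPM (log2 fold change 1.60, SE 0.33, adjusted p = 0.04996). In C2C12 cells the separation was widest at day 0, with 2.28 and 2.26 CPM against 5.71 and 6.88 CPM. It passed the adjusted threshold with DESeq2 (adjusted p = 2.75e-04) and without the filter on low counts. In the edgeR fit with the filter and all replicates it did not (log2 fold change 1.47, SE 0.28, adjusted p = 0.0567). By day 3 the C2C12 values were 6.82 and 5.91 CPM and 8.47 and 8.799 CPM, still apart in the same direction (log2 fold change 0.41, SE 0.27). By day 6 they overlapped (15.8 and 9.99 CPM against 12.2 and 8.93 CPM). The difference of the silencing effect between PMs and C2C12 cells passed the threshold at day 3 (log2 fold change 1.78, SE 0.43, adjusted p = 0.0499). Of the 8 fits that left out a replicate, 7 lost this call (log2 difference 1.51 to 2.08 over the 8). With edgeR the estimated difference was of the opposite sign at day 0 (-1.85 ± 0.44, adjusted p = 0.333) and close to the day 3 value at day 6 (1.89 ± 0.42, adjusted p = 0.177). DESeq2 called both, at -1.866 on day 0 (adjusted p = 0.04185) and 1.897 on day 6 (adjusted p = 0.0085). Without the filter on low counts, edgeR also called the day 6 difference (adjusted p = 0.01365). The day 3 call in PMs was lost without siControl replicate 1 or siTead1/4 replicate 2 (adjusted p 0.0236 to 0.0709 over the 4 fits), and the day 6 call in all 4 fits (0.166 to 0.338).

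The sequences upstream of these genes are given because both rose after silencing. They were read from the mm9 genome on the plus strand, 250 bases ending just before the annotated start, and capitals mark the MCAT core CATTCC or its reverse GGAATG.
Serpinb1b, chr13:33175744-33175993: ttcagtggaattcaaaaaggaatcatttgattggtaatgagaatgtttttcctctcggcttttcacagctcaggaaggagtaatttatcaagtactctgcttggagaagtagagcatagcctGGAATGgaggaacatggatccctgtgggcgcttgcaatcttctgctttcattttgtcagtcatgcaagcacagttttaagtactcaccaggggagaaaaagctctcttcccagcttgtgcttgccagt
Serpinb6b, chr13:33056828-33057077: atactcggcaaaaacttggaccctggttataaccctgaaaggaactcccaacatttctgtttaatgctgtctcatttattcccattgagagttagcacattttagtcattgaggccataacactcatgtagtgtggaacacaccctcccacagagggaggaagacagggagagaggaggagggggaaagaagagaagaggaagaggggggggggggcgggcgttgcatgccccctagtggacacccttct
The Serpinb1b sequence holds 1 match, whose first base lies 128 bases before the start, and the Serpinb6b sequence none. In windows from 250 bases before to 50 after the start, CATTCC or GGAATG was found in 10 of 50 protein-coding Serpin genes (20.0%) and in 2562 of 19481 protein-coding genes, or 13.15%. Besides Serpinb1b, the Serpin windows with a match were those of Serpina12, Serpina3i, Serpina3j, Serpina5, Serpina7, Serpinb3d, Serpinb6a, Serpinb9c and Serping1. A match describes these letters and does not show binding.

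Serpinb6c and Serpinb9g rose in C2C12 cells at day 3. Serpinb6c, at chr13:33971685-33997577, went from 0.637 and 1.05 to 2.88 and 7.48 CPM (log2 fold change 2.57, SE 0.49, adjusted p = 0.0373). Its day 0 values were near 0 (0.0563 and 0.0711 CPM against 0.09398 and 0.1097 CPM), and at day 6 it measured 4.14 and 3.07 CPM with siControl and 13.1 and 7.29 CPM with siTead1/4. The groups were apart at days 3 and 6, and the day 6 difference was not called (adjusted p = 0.406). Serpinb9g, at chr13:33576659-33587867, had the widest change of the family, from 0.566 and 0.547 to 4.47 and 18.6 CPM at day 3 (log2 fold change 4.33, SE 0.76, adjusted p = 0.0318). At day 0 it stood at 0.113 and 0.0355 CPM and 0.329 and 0.402 CPM, and at day 6 at 1.87 and 0.501 CPM and 9.08 and 6.14 CPM. Serpinb9c, a paralog in the same cluster, was at 0.967 and 1.25 CPM and 3.202 and 9.05 CPM at day 3. It was short of the threshold with edgeR (log2 fold change 2.42, SE 0.52, adjusted p = 0.0553) and called by DESeq2 (adjusted p = 3.81e-04). DESeq2 also called Serpinb9e higher at day 3, which edgeR did not. The second siTead1/4 replicate was the higher one for Serpinb6c, Serpinb9g and Serpinb9c at day 3. Both calls were lost without that replicate or without either siControl replicate (adjusted p 0.00556 to 0.572 for Serpinb6c and 0.00676 to 0.294 for Serpinb9g over the 4 fits).

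At day 0 in PMs, Serpinb8, whose product inhibits furin, rose and Serpinb9, the inhibitor of granzyme B, fell. Serpinb8, at chr1:109486583-109505486, measured 12.1 and 15.8 CPM with siControl and 28.4 and 32.1 CPM with siTead1/4 (log2 fold change 1.11, SE 0.21, adjusted p = 0.0113). By day 3 it had dropped in both (1.85 and 2.704 CPM against 1.802 and 2.39 CPM) and the groups overlapped. In C2C12 cells Serpinb8 was at 8.67 and 17.8 CPM and 12.5 and 17.5 CPM at day 0, with overlap. Serpinb9, at chr13:33095119-33109826, went from 3.67 and 3.41 to 1.105 and 1.897 CPM in PMs at day 0 (log2 fold change -1.24, SE 0.28, adjusted p = 0.0248). At day 3 it was 4.38 and 5.48 CPM and 3.48 and 4.53 CPM, and at day 6 10.1 and 7.597 CPM and 7.19 and 7.999 CPM. In C2C12 cells the day 0 values were 26.3 and 22.8 CPM with siControl and 10.97 and 15 CPM with siTead1/4, which did not overlap and were not called (adjusted p = 0.243). The Serpinb8 call was kept only without siControl replicate 2 (adjusted p 0.0435 to 0.118 over the 4 fits), and the Serpinb9 call was lost in all 4 fits (0.0534 to 0.211).

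Serpinb9b, a paralog of Serpinb9 at chr13:33119285-33133753, had lower means with siTead1/4 in all 6 comparisons. In C2C12 cells it measured 54.1 and 31.9 CPM with siControl and 18.3 and 24.9 CPM with siTead1/4 at day 0, 47.3 and 27.9 CPM and 14.98 and 11.5 CPM at day 3, and 42.4 and 13 CPM and 11.8 and 5.36 CPM at day 6. In PMs the values were 0.382 and 0.282 CPM and 0.235 and 0.198 CPM, 1.18 and 0.253 CPM and 0.429 and 0.0996 CPM, and 11.9 and 5.38 CPM and 3.49 and 2.42 CPM at the same days. The groups overlapped in PMs at day 3 and were apart in the other 5 comparisons. The log2 fold changes were -0.996 ± 0.55, -1.53 ± 0.55 and -1.70 ± 0.56 in C2C12 cells and -0.64 ± 0.84, -1.38 ± 0.76 and -1.54 ± 0.59 in PMs, and edgeR called none of them (adjusted p 0.2302 to 0.704). Without the filter on low counts, all 3 C2C12 differences and that of PMs at day 6 were called. With a replicate block, edgeR also called that of PMs at day 6 (adjusted p = 0.0347).

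The clade A genes that fell were Serpina6 and Serpina9, both at low levels in PMs. Serpina6, at chr12:104884840-104895422, encodes the corticosteroid-binding globulin and is not a protease inhibitor. It measured 0.466 and 0.423 CPM with siControl and 0.0235 and 0.119 CPM with siTead1/4 at day 0 (log2 fold change -2.54, SE 0.62, adjusted p = 0.0351). At day 3 the order of the means was the reverse (0.365 and 0.581 CPM against 0.837 and 0.673 CPM), as at day 6 (0.09704 and 0.1304 CPM against 0.548 and 0.217 CPM), and neither was called. Serpina9, at chr12:105232953-105251965, went from 1.37 and 1.11 to 0.236 and 0.199 CPM at day 3 (log2 fold change -2.50, SE 0.40, adjusted p = 0.00546). It was at 0.0848 and 0.113 CPM and 0.0235 and 0.0593 CPM at day 0, and at 0.841 and 1.17 CPM and 0.404 and 0.744 CPM at day 6. In C2C12 cells at day 3 Serpina9 was at 0.684 and 0.587 CPM with siControl and 0.212 and 0.278 CPM with siTead1/4, also apart, without a call (adjusted p = 0.198). Serpina12, the adipokine vaspin, had 1.32 and 2.15 CPM and 0.129 and 0.349 CPM in PMs at day 3 (log2 fold change -2.88, SE 0.80, adjusted p = 0.0564). This difference was called by DESeq2 (adjusted p = 0.00811) and by edgeR with a replicate block (adjusted p = 0.00834) or without the filter (adjusted p = 2.22e-04). The Serpina6 call was lost in all 4 fits that left out a replicate (adjusted p 0.0595 to 0.228) and with DESeq2. The Serpina9 call was kept only without siControl replicate 2 (0.0358 to 0.0823).

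**Figure D3:**
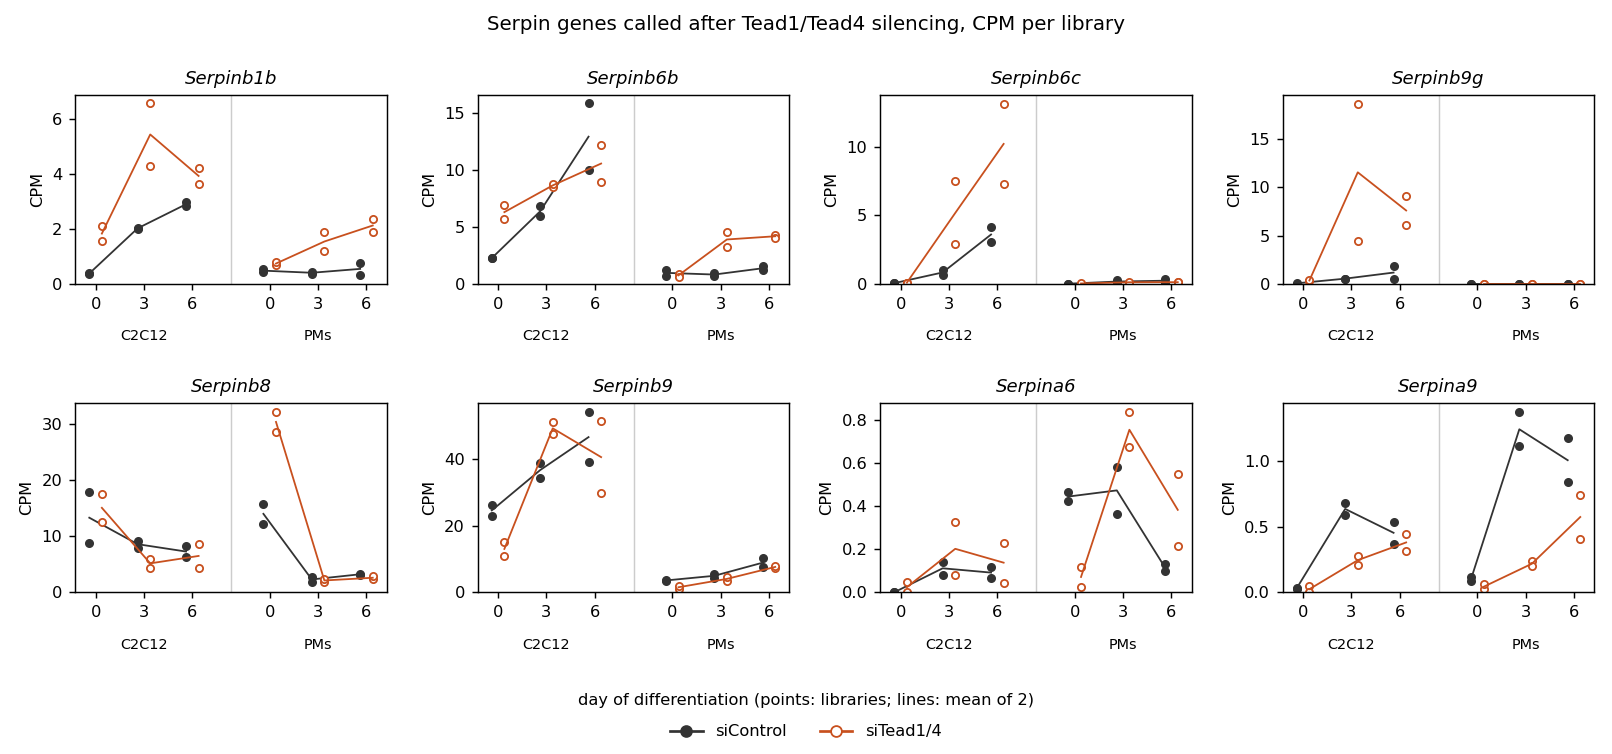
CPM of the 8 Serpin genes called after silencing, in each of the 24 libraries (points) by day, with the mean of 2 replicates as lines, filled for siControl and open for siTead1/4. Serpinb9g has no counts in the 12 PM libraries, and its highest C2C12 point is the second siTead1/4 replicate at day 3.

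None of the abundant genes Serpinh1, Serpinf1, Serpinb6a, Serpinb1a and Serpine2 was called after silencing by edgeR with the filter on low counts. Several PM differences passed the adjusted p with a log2 fold change under 1. Serpinb6a was lower with siTead1/4 in PMs at day 3, 423 and 419 CPM against 230.4 and 223 CPM (log2 fold change -0.90, SE 0.11, adjusted p = 0.0015), and at day 6, 406 and 395 CPM against 246 and 304 CPM (log2 fold change -0.54, SE 0.11, adjusted p = 0.0464). At day 0 it was 199.99 and 195 CPM and 181 and 198 CPM. Serpine2, encoding protease nexin-1, an inhibitor of thrombin and plasminogen activators, was higher in PMs at day 3, 43.5 and 51.01 CPM against 75.4 and 95.9 CPM (log2 fold change 0.85, SE 0.13, adjusted p = 0.00424). At day 0 Serpine2 was at 97.1 and 95.8 CPM and 109 and 99.3 CPM, and at day 6 at 72.5 and 69.03 CPM and 113 and 99.7 CPM. Serpinb1a, which inhibits neutrophil elastase and cathepsin G, was at 12.2 and 16.7 CPM and 25.7 and 23.5 CPM in PMs at day 0 (log2 fold change 0.76, SE 0.14, adjusted p = 0.0111). At days 3 and 6 its PM values were 159.8 and 159 CPM against 171 and 153 CPM and 249.6 and 257 CPM against 227 and 249.9 CPM.

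In C2C12 cells these genes varied more between replicates. Serpinb6a ranged over 582 and 520.2 CPM and 411 and 717 CPM at day 0, 426 and 379.9 CPM and 416 and 661 CPM at day 3, and 663 and 502 CPM and 477 and 397 CPM at day 6, each pair siControl first. Serpinb1a was at 26.3 and 22.04 CPM with siControl and 44.8 and 71.6 CPM with siTead1/4 at day 0 (log2 fold change 1.27, SE 0.30, adjusted p = 0.126). DESeq2 (adjusted p = 0.00861) and edgeR without the filter on low counts (adjusted p = 3.29e-04) called this difference. At day 3 Serpinb1a was at 169 and 176 CPM and 96.5 and 162 CPM, and at day 6 at 314 and 315 CPM and 195 and 288 CPM. So the siTead1/4 values were the higher ones at day 0 and the lower ones afterwards. Serpine2 was low throughout in this line, between 3.52 and 16.4 CPM in its 12 libraries.

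Serpinh1 and Serpinf1 passed neither threshold at any day. Serpinh1 in C2C12 cells was at 1160.1 and 990.2 CPM with siControl and 540.2 and 1149.7 CPM with siTead1/4 at day 0, at 928 and 935 CPM and 1197 and 2118 CPM at day 3, and at 644 and 764 CPM and 882 and 758 CPM at day 6. Serpinh1 in PMs was at 1331 and 1085 CPM and 814 and 667 CPM at day 0 (adjusted p = 0.0771), at 672 and 893 CPM and 579 and 885 CPM at day 3, and at 1062 and 810.4 CPM and 895 and 867 CPM at day 6. The day 0 groups of PMs did not overlap and the later ones did. Serpinf1 was at 497 and 573 CPM and 467 and 574 CPM in PMs at day 0, at 148 and 183 CPM and 121 and 175 CPM at day 3 and at 248 and 276 CPM and 198 and 255 CPM at day 6, overlapping each time. In C2C12 cells Serpinf1 was at 595 and 363 CPM and 385 and 441 CPM, 307 and 276 CPM and 378 and 469.7 CPM, and 239 and 234 CPM and 392 and 209 CPM at the same days.

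By edgeR, Serpinb6b at day 3 was the one call among the Serpin genes in the test of whether the silencing effect differed between the cell types. At day 3 the backgrounds were 1.02% for a larger and 0.236% for a smaller effect in PMs. At days 0 and 6 edgeR called none of the 29 tested Serpin genes, with 5 at an unadjusted p under 0.05 on each day. DESeq2 called 1 on each day, Serpinb6b, lower in PMs at day 0 and higher at day 6. The backgrounds were 0.00591% and 0% at day 0 and 0.0295% and 0.00591% at day 6. Serpinb6a missed the threshold at day 3 (-1.31 ± 0.33, adjusted p = 0.06897). DESeq2 called Serpinb6a at day 3 as well (log2 difference -1.29, adjusted p = 0.0112), and edgeR without the filter on low counts called Serpinb6a and Serpinb6c.

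More Serpin genes were called on differentiation of siControl cells. In C2C12 cells, 13 of 27 tested Serpin genes rose from day 0 to day 3 and 4 fell, while 16% of all tested genes rose and 12.7% fell. In PMs, 6 of 21 rose and 5 fell, beside backgrounds of 17.5% and 14.9%. The median change of the tested members was 1.45 on the log2 scale in C2C12 cells and 0.17 in PMs, against -0.01 and 0.01 over all genes. In C2C12 cells, Serpina3g, Serpina9 and Serpina12 had 3 counts or fewer in both siControl libraries of day 0. Serpinb1c, Serpinb6c, Serpinb7 and Serpinb9g were also near 0 there. Such genes passed the filter through other groups and could rise but hardly fall, as could Serpinb6c in PMs. The counts of risen genes and these medians are therefore no result about the family. Marker genes moved at the same time. Of 11 muscle markers, 8 rose in C2C12 cells (median log2 fold change 2.51), while 5 rose and 3 fell in PMs (median 0.26). Of the fibroblast markers, 5 of 8 tested rose in C2C12 cells, namely Col14a1, Dcn, Dpt, Lum and Pi16 (median 3.63), and 3 of 9 in PMs (median 0.35). Their part in the Serpin changes was not tested.

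Clade B genes made up 9 of the 13 that rose in C2C12 cells, and 15 of the 27 tested, a count under the same limit. Serpinb1a rose in both cell types, by 2.8 ± 0.32 (log2, SE) in C2C12 cells and 3.41 ± 0.15 in PMs, where its values went from 12.2 and 16.7 CPM to 159.8 and 159 CPM. Its paralog Serpinb1c rose in C2C12 cells from 0.113 and 0.124 to 1.203 and 1.46 CPM (log2 fold change 3.41, SE 0.38, adjusted p = 1.01e-04), and Serpinb1b from 0.394 and 0.373 to 2.05 and 2.004 CPM (log2 fold change 2.36, SE 0.33, adjusted p = 4.07e-04). Serpinb6b rose by 1.45 ± 0.28 and Serpinb6c by 3.61 ± 0.67 in C2C12 cells. Serpinb7, the mesangial-cell serpin megsin, went from 0.0563 and 0.0889 to 2.34 and 5.02 CPM (log2 fold change 5.52, SE 1.05, adjusted p = 0.00238) and stood at 14.1 and 15.5 CPM at day 6. Serpinb9c, Serpinb9d and Serpinb9g, paralogs of Serpinb9, rose by 2.36 ± 0.60, 2.50 ± 0.67 and 2.95 ± 0.99. With a replicate block in edgeR, Serpinb9g was no longer called (adjusted p = 0.0537). Leaving out replicate 1 or 2 of siControl lost 9 or 12 of the 17 calls. Serpinb1a, Serpinb1c, Serping1, Serpina12 and Serpinb2 were called in both of these fits.

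Outside clade B, Serping1, which encodes the C1 inhibitor of complement and contact activation, rose in C2C12 cells from 1.13 and 0.586 to 28.1 and 19.2 CPM (log2 fold change 4.77, SE 0.62, adjusted p = 2.60e-04). It rose less in PMs, from 1.17 and 1.01 to 1.91 and 4.12 CPM (log2 fold change 1.41, SE 0.42, adjusted p = 0.0136), and again by day 6 to 7.47 and 11.1 CPM (log2 fold change 1.61, SE 0.39, adjusted p = 0.0388). Without siControl replicate 2 the day 3 call in PMs was lost (adjusted p 0.0161 to 0.325 over both fits). Serpina12 was absent from both siControl libraries of C2C12 cells at day 0 and reached 0.543 and 0.344 CPM at day 3, at least 6.44-fold higher than 3 counts per library. Serpina9 was 19.3-fold (95% interval 6.296 to 96.5) higher at day 3 in C2C12 cells, and in PMs it rose by 3.58 ± 0.46 on the log2 scale. In PMs Serpina12 rose by 4.29 ± 0.93, from 0.148 and 0 to 1.32 and 2.15 CPM, a call that was lost without siControl replicate 2 (adjusted p 0.00906 to 0.05401). Serpinb6c was 7.695-fold (95% interval 1.77 to 69.8) higher at day 3 than at day 0 in PMs, from 1 count per library. This call too was lost without siControl replicate 2, and also with DESeq2 (adjusted p = 0.119) and with a replicate block. Serpinb6a rose in PMs by 1.04 ± 0.11.

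The genes that fell were led by Serpinb2, plasminogen activator inhibitor type 2, which went from 35.98 and 118 to 0.0944 and 0.162 CPM in C2C12 cells (log2 fold change -9.21, SE 1.02, adjusted p = 9.62e-05) and from 7.71 and 11.1 to 0.8698 and 0.152 CPM in PMs (log2 fold change -4.28, SE 0.91, adjusted p = 0.00219). With siTead1/4, Serpinb2 was at 12.9 and 41.9 CPM at day 0 and 0.0265 and 0.0695 CPM at day 3 in C2C12 cells, and at 10.98 and 16.2 CPM and 0.558 and 0.448 CPM in PMs. The day 6 values of Serpinb2 were 0.116 and 0.401 CPM with siControl and 0 and 0.133 CPM with siTead1/4 in C2C12 cells, and 3.72 and 0.293 CPM and 1.85 and 1.02 CPM in PMs. Serpine2 fell in both cell types (-1.21 ± 0.37 in C2C12 cells and -1.09 ± 0.13 in PMs), as did Serpini1, the tissue plasminogen activator inhibitor neuroserpin (-1.44 ± 0.43 and -1.76 ± 0.31). The C2C12 calls of both were lost without either siControl replicate (adjusted p 0.232 to 0.355 for Serpine2 and 0.115 to 0.597 for Serpini1), that of Serpini1 also with DESeq2, and without replicate 1 the Serpine2 change in PMs was under 1 on the log2 scale. Serpinb8 (-2.66 ± 0.23) and Serpinf1 (-1.74 ± 0.20) fell in PMs.

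From day 3 to day 6, edgeR called no Serpin gene in siControl C2C12 cells, with backgrounds of 0% up and 0% down. There, 6 Serpin genes had an unadjusted p under 0.05 and DESeq2 called 1. In PMs 2 of 21 rose, Serping1 and Serpinb9b, and none fell (backgrounds 2.22% and 0.582%). Serpinb9b went from 1.18 and 0.253 to 11.9 and 5.38 CPM (log2 fold change 3.59, SE 0.67, adjusted p = 0.0146). Both calls were lost when either siControl replicate was left out (adjusted p 0.0944 to 0.104 for Serpinb9b and 0.132 to 0.252 for Serping1). Of 9 fibroblast markers tested in PMs, 5 rose over the same interval (median log2 fold change 1.31), and their part in these changes was not tested.

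The response to differentiation, the log2 fold change from day 0 to day 3, differed between the cell types for 8 of 29 Serpin genes. It was higher in PMs for 3 (background 3.79%) and lower for 5 (background 7.44%). Higher and lower refer to the signed change, so a gene that fell further in PMs counts as lower. Higher responses in PMs were found for Serpinb6a (1.54 ± 0.33 on the log2 scale, adjusted p = 0.00451) and Serpinb2 (4.95 ± 1.5, adjusted p = 0.0371). Serpinb2 fell in both cell types, by less in PMs (-4.28) than in C2C12 cells (-9.21). Lower responses in PMs were found for Serping1 (-3.36 ± 0.77, adjusted p = 0.00703), Serpinb1b (-2.65 ± 0.54, adjusted p = 0.00291), Serpinb8 (-1.97 ± 0.49, adjusted p = 0.01198) and Serpinb6b (-1.73 ± 0.44, adjusted p = 0.0141). Serpinb8 fell further in PMs (-2.66) than in C2C12 cells (-0.67, not called). Serpinb7 was also called lower and had no counts in siControl PMs at day 3, so that its fitted difference has no interpretable size. In the 4 fits that left out a siControl replicate of 1 cell type, 2 to 6 Serpin genes were called. Serpinb1b was called in all 4 (adjusted p 0.00962 to 0.0498). Serpinb6a (adjusted p 0.0476 to 0.0705) and Serpinb8 (0.0105 to 0.162) were kept only without C2C12 replicate 2, and Serpinb2 (0.0146 to 0.453) and Serpinb6b (0.0125 to 0.372) only without PM replicate 2. Serping1 (0.0178 to 0.117) was lost without C2C12 replicate 2 or PM replicate 1, and Serpinb7 (0.03301 to 0.266) without replicate 2 of either cell type. Of 11 muscle markers, 9 had a lower response in PMs (median difference -2.24), and 10 were already higher in PMs at day 0. Of 9 fibroblast markers, 3 had a lower response in PMs (median difference -2.59). The part of these differences in the Serpin values was not tested.

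**Figure D4:**
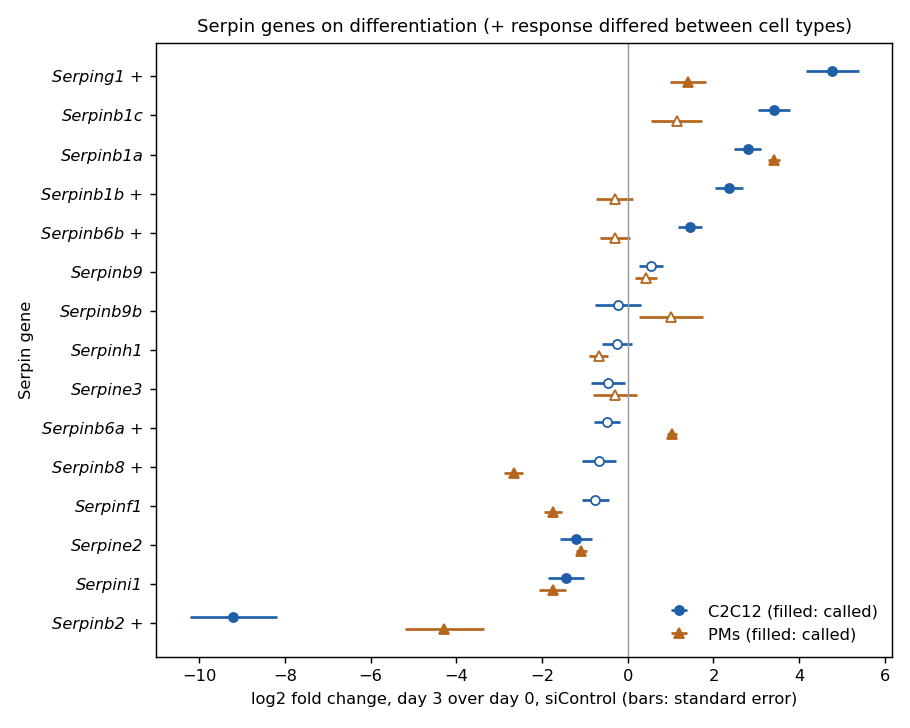
Log2 fold change from day 0 to day 3 in siControl C2C12 cells (circles) and PMs (triangles) for 15 Serpin genes tested in both and above 3 counts in each group, with standard errors as bars and filled symbols for calls. A plus marks genes whose response differed between the cell types by the test of that difference. Serpinb6a lies on opposite sides of 0 in the 2 cell types.

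Serpinb9c to Serpinb9g, a run of paralogs on chromosome 13, were counted almost only in C2C12 cells. Among siControl cells, 3 of 29 Serpin genes were higher and 9 lower in PMs than in C2C12 cells at day 0 (backgrounds 16.3% and 10.5%), 4 higher and 13 lower at day 3 (17.2% and 12.6%), and 6 higher and 13 lower at day 6 (15.7% and 9.22%). Of the genes called lower, Serpinb7, Serpinb9c, Serpinb9d, Serpinb9e, Serpinb9g and Serpind1 passed the filter in C2C12 cells but not in PMs. They entered the joint fit through the libraries where they were high, which fixed their direction beforehand. The counts of lower genes are therefore no result about the family. Serpinb9e, Serpinb9f and Serpinb9g had 0 counts in all 12 PM libraries, against 323, 58 and 1760 counts in total in the 12 C2C12 libraries. Serpinb9c and Serpinb9d had 3 and 1 counts in PMs against 1175 and 493 in C2C12 cells. At day 3, PMs were lower than C2C12 cells by at least 13.9-fold for Serpinb9c, 8.85-fold for Serpinb9d and 6.95-fold for Serpinb9g, each against 3 counts per library. The Serpinb9g difference was not called by edgeR with a replicate block (adjusted p = 0.052). Serpinb7, on chromosome 1, was lower in PMs by at least 45.97-fold at day 3 and was 299-fold (95% interval 102 to 1452) higher in C2C12 cells at day 6.

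The genes from Serpinb9c to Serpinb9g lie between bases 33241144 and 33587867 of chromosome 13 (mm9). Over the 250 bases before the start, Serpinb9e and Serpinb9f were identical at 99.2% of 239 aligned bases, and Serpinb9e and Serpinb9g at 95.6% of 250. These sequences, on the plus strand, are shown for their likeness, and no MCAT core is among them.
Serpinb9e, chr13:33341231-33341480: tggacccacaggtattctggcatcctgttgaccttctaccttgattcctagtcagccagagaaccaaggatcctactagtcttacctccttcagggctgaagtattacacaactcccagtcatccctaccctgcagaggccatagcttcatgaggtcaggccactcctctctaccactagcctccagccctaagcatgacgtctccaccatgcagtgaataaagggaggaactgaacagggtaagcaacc
Serpinb9f, chr13:33415696-33415945: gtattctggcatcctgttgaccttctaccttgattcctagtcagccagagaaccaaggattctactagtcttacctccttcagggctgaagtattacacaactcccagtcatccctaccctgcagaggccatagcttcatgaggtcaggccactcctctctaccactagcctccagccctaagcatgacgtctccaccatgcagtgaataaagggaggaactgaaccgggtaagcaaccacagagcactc
Serpinb9g, chr13:33576409-33576658: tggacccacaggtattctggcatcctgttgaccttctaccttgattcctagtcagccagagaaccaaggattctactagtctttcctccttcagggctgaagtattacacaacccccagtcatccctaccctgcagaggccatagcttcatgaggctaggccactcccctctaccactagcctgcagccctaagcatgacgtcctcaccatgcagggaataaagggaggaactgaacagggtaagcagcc
The likeness extends to the transcripts. Of all 50-base windows of the longest coding transcript, 52.5% in Serpinb9f, 44.7% in Serpinb9g, 30.8% in Serpinb9d and 28.3% in Serpinb9e recur exactly in another Serpin gene, so the counts of these genes may be split or lost among the copies and are uncertain. For Serpinb9c no such window was found. The share was 3.52% for Serpinb1b, 2.56% for Serpinb6b and 7.53% for Serpinb6c. The reference is of C57BL/6 origin, the strain of the PMs, whereas the C2C12 line comes from C3H, and the part of strain differences in these counts was not tested.

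**Figure D5:**
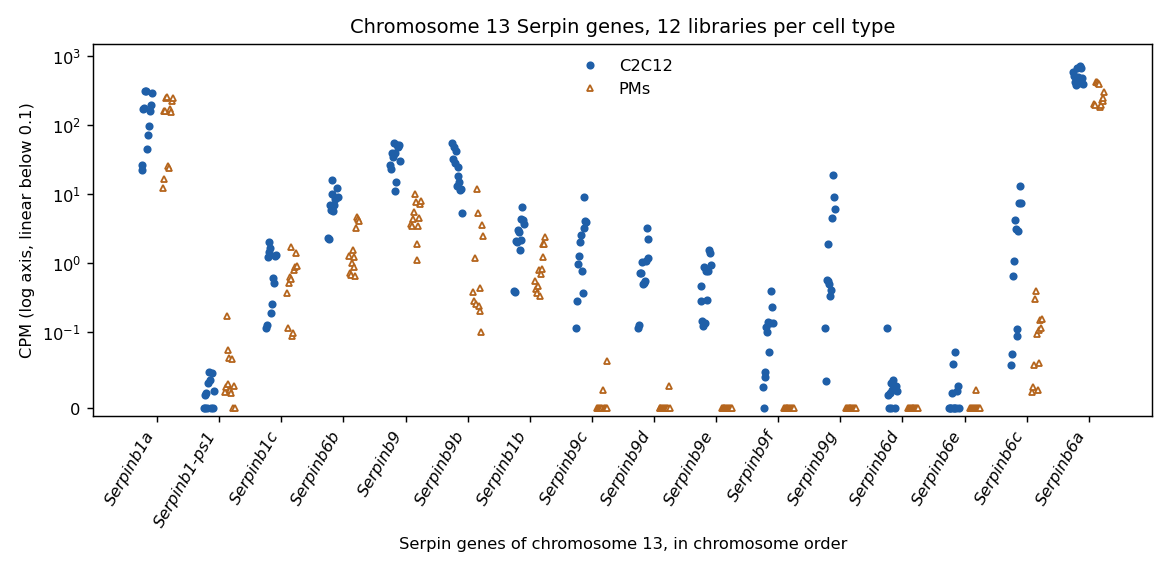
CPM of the 16 Serpin genes of chromosome 13 in chromosome order, for the 12 C2C12 libraries (circles) and the 12 PM libraries (triangles), on a log axis that is linear below 0.1 CPM. Serpinb9e, Serpinb9f and Serpinb9g sit at 0 in PMs, while Serpinb1a and Serpinb6a are abundant in both cell types.

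Other clade B genes were lower in PMs without being absent. Serpinb9 was at 26.3 and 22.8 CPM in C2C12 cells and 3.67 and 3.41 CPM in PMs at day 0 (log2 fold change -2.79, SE 0.29, adjusted p = 9.21e-07), and stayed lower at days 3 and 6 (-2.89 ± 0.29 and -2.39 ± 0.28). Serpinb9b was at 54.1 and 31.9 CPM and 0.382 and 0.282 CPM at day 0 (log2 fold change -6.99, SE 0.80, adjusted p = 2.50e-06), a gap that was -1.69 ± 0.59 at day 6, where the call was lost without C2C12 replicate 1 or PM replicate 2 (adjusted p 0.0115 to 0.523). Serpinb6b was lower in PMs at all 3 days (-1.20 ± 0.31, -2.93 ± 0.32 and -3.22 ± 0.32), the day 0 call being lost without PM replicate 2 (adjusted p 0.00485 to 0.0878). Serpind1, heparin cofactor II, was also lower at each day, at 0.619 CPM or less in every library, and its day 0 call was lost with DESeq2. In the other direction, Serpine2 was called higher in PMs at all 3 days, by 3.42 ± 0.29, 3.56 ± 0.30 and 3.71 ± 0.30 at days 0, 3 and 6 (adjusted p = 7.71e-08, 9.51e-08 and 7.51e-08). Serpina6 was higher in PMs at days 0 and 3, the latter only with both replicates of each group and not with DESeq2 or a replicate block. It passed the filter in PMs but not in C2C12 cells. These comparisons of levels are of poly-A RNA from whole cultures, in which fewer cells of a type and less RNA per cell cannot be told apart.

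The protease systems that serpins face were followed through 4 gene lists, whose calls are to be read beside the shares of all tested genes given above for each comparison, such as 1.5% up and 1.1% down in PMs at day 0 and 2.1% up in PMs at day 3. Of 20 plasminogen activation genes, 15 were tested in C2C12 cells and 17 in PMs. After silencing, Hgfac, a protease that activates hepatocyte growth factor, rose in C2C12 cells at day 3 (log2 fold change 2.16, SE 0.37, adjusted p = 0.0313), and in PMs at day 0 Hgf rose (log2 fold change 2.20, SE 0.38, adjusted p = 0.008295) and the endocytic receptor Lrp2 fell (log2 fold change -1.83, SE 0.42, adjusted p = 0.0257). Neither activator was called, with Plau at 0.68 ± 0.19 and Plat at 0.71 ± 0.21 in PMs at day 0, nor was the receptor Plaur (1.31 ± 0.40 in C2C12 cells at day 3). Of 20 coagulation genes, 13 were tested in each cell type and 1 was called, Thbd, encoding thrombomodulin, which rose in PMs at day 3 (log2 fold change 1.28, SE 0.15, adjusted p = 0.00111). Of 28 leukocyte and lysosomal proteases, a list drawn up around targets of clade A and clade B serpins, 16 and 15 were tested. Ctsc, the cathepsin that activates granule proteases, rose in PMs at all 3 days (1.29 ± 0.20, 1.85 ± 0.19 and 1.15 ± 0.19). The granzymes Gzmd (-2.35 ± 0.63) and Gzme (-2.25 ± 0.41) and the mast cell protease Mcpt8 (-2.11 ± 0.37) fell in PMs at day 0, and none of this list was called in C2C12 cells. Ctsl was not called at any day. Of 33 collagen and collagen-processing genes, the clients and partners of Serpinh1, all were tested and 2 rose, Col5a3 (1.01 ± 0.19) and Col6a2 (1.15 ± 0.28), in PMs at day 3. Col1a1 (-0.02 ± 0.33) and Col1a2 (0.19 ± 0.30) were not called there.

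The summed levels of marker genes differed widely between cell types. All 11 muscle markers were tested, and their summed level was 18660 to 20720 CPM in siControl C2C12 cells and 34734 to 36384 CPM in siControl PMs at day 3. With siTead1/4 it was 7997 to 10345 CPM and 30398 to 31880 CPM, and Myh3 fell in C2C12 cells (log2 fold change -2.47, SE 0.45, adjusted p = 0.0336, background 1.08%). The summed fibroblast markers measured 29.0 to 189.7 CPM in PMs and 67.9 to 458.2 CPM in C2C12 cells. In PMs at day 6, Dcn (-2.46 ± 0.39) and Lum (-2.79 ± 0.50) fell with silencing, 2 of 9 tested (background 0.279%). The 9 macrophage markers summed to 3.06 to 9.44 CPM, with C1qa at 0 counts in every group, and 1 of the 4 tested in C2C12 cells, Itgam, fell at day 3 (log2 fold change -2.75, SE 0.48, adjusted p = 0.0322, background 1.08%). The endothelial markers summed to 1.39 to 5.69 CPM in C2C12 cells and 3.94 to 20.9 CPM in PMs, where Tek, 1 of 9 tested, rose at day 0 (log2 fold change 1.5, SE 0.28, adjusted p = 0.0115, background 1.5%). None of the 8 Schwann cell markers was called after silencing, and their sum was 8.36 to 399 CPM, most of it Erbb3. In C2C12 cells with siControl, Erbb3 rose from 5.66 and 6.45 CPM to 311 and 397 CPM between days 0 and 3. Marker levels alone do not show that other cell types were present. The part of these marker differences in the Serpin values was not tested.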

How the data were processed

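The members and gene lists were chosen with earlier results of these data known. The authors sequenced poly-A RNA from an unstranded kit, mapped reads to mm9 with TopHat2 2.0.10 (on Bowtie2 2.1.0), counted them with HTSeq 0.6.1 and normalized with DESeq2 1.8.1, per the submitters' notes and methods, and deposited 1 table of raw counts per gene. Reads of antisense or overlapping genes cannot be separated. Left out were 36 columns of 12 libraries not among the listed samples, 48 normalized columns of the listed ones and columns of annotation. Counts were fitted with edgeR 4.0.16 in R 4.3.3 (filterByExpr, TMM, quasi-likelihood test with 6 group means per cell type, or 12 for differences between cell types). P-values were adjusted over all tested genes (Benjamini-Hochberg), and the SE is the log2 fold change over the root of F. CPM uses TMM sizes of all 24 libraries, and per-kilobase values the deposited gene length. Groups at 3 counts or fewer in both libraries give bounds, or ratios with exact 95% intervals that cover counting error only. On simulated data, edgeR called 151 of 198 genes changed by 2 on the log2 scale in C2C12 cells and 170 of 197 in PMs at day 0. The simulation gave each gene 1 spread for all groups, whereas siTead1/4 replicates of C2C12 cells differed more than siControl replicates at each day. It therefore does not give the share of real changes found there. Text values follow 1 rule: members called after silencing, at a mean of 10 CPM or more in a group, or called from day 0 to day 3 at a mean of 1 CPM or more, with other members given by counts, bounds or ranges. The values of 1 member are not reported here, and counts over the family include it. Alternatives were DESeq2 1.42.0, RLE size factors, no filter, a replicate block and leaving out replicates. Promoters came from the mm9 genome with GENCODE vM1 strands, the start being the deposited one.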

Additional observations from a re-analysis of the deposited data

Results flagged for a closer look

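The effect of Tead1 and Tead4 silencing on Serpinb6b at day 3 differed between PMs and C2C12 cells, by 1.78 on the log2 scale in the interaction test (adjusted p = 0.0499). Of the 8 fits that left out a replicate, 7 lost this call and the one without siTead1/4 replicate 1 of C2C12 cells kept it.

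The response from day 0 to day 3 in siControl cells differed between the cell types, as PMs minus C2C12 cells on the log2 scale, for Serpinb2 (4.95, adjusted p = 0.0371) and Serpinb6a (1.54, adjusted p = 0.00451). Serpinb2 fell in both cell types and by less in PMs. The signed difference was negative for Serping1 (-3.36, adjusted p = 0.00703), Serpinb1b (-2.65, adjusted p = 0.00291), Serpinb8 (-1.97, adjusted p = 0.0120) and Serpinb6b (-1.73, adjusted p = 0.0141). Serpinb8 fell further in PMs than in C2C12 cells. For Serpinb7 the fitted difference was -10.58 (adjusted p = 0.00968), a value that depends on the prior count because Serpinb7 had no counts in siControl PMs at day 3. Of the 4 fits that left out a siControl replicate, Serpinb1b was called in all, Serping1 and Serpinb7 were lost in 2, and Serpinb2, Serpinb6a, Serpinb8 and Serpinb6b were lost in 3 (adjusted p up to 0.453 for Serpinb2). All adjusted p-values are from edgeR's quasi-likelihood test with 2 replicates per group.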

How the results depend on the processing

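Of 98 calls, every one kept its direction in the 728 refitted values, and 152 of these values no longer passed the thresholds, 134 of them when a replicate was left out. RLE size factors lost no call. Without the filter on low counts, Serpin calls after silencing numbered 8, 8 and 3 in C2C12 cells at days 0, 3 and 6 (1, 2 and 0 with it) and 4 in PMs at day 6 (2 with it). From day 3 to day 6 of siControl cells, this gave 3 calls in C2C12 cells and 4 in PMs (0 and 2 with the filter), and 3 and 1 differences of the silencing effect at days 3 and 6 (1 and 0). DESeq2 called 3, 5 and 1 in C2C12 cells after silencing, 1 from day 3 to day 6, and 1, 2 and 1 differences of the silencing effect at days 0, 3 and 6. The replicate block gave 2 calls in C2C12 cells at day 0 and changed no other count by over 1.5 times. With the block, calls after silencing were gained for Serpinb2 and Serpinb1b in C2C12 cells at days 0 and 3 and for Serpina12 and Serpinb9b in PMs at days 3 and 6. From day 0 to day 3, Serpinb9g in C2C12 cells (adjusted p = 0.0537) and Serpinb6c in PMs (adjusted p = 0.0505) were no longer called, nor between the cell types were Serpinb2 and Serpinb9d at day 0, Serpina6, Serpina12, Serpinb1c and Serpinb9g at day 3 and Serpina9 at day 6. Deviations of same-numbered replicates correlated over 0.1 in 8 of 15 pairs of groups in C2C12 cells (median r 0.10, lowest -0.37). In PMs they did in 13 of 15 (median r 0.25, lowest 0.08), so same-numbered PM replicates tended to deviate together. The main fit did not model this, and the calls with the block are given above. The cause of these shifts was not tested.

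Leaving out 1 replicate of 1 siRNA, with the lone sample assumed to vary like the others, gave 0 to 3, 0 to 7 and 0 to 0 calls in C2C12 cells at days 0, 3 and 6 after silencing, and 0 to 1, 0 to 2 and 0 to 0 in PMs. It gave 5 to 8 (C2C12 cells) and 9 to 11 (PMs) from day 0 to day 3, and 0 to 0 in both from day 3 to day 6. Between the cell types it gave 9 to 11, 12 to 15 and 14 to 16 at days 0, 3 and 6. Differences of the silencing effect numbered 0 to 0, 0 to 4 and 0 to 1, and differences of the day 3 response 2 to 6. Levels near 1 count per library limit what can be said of the rarer members.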
